A study of Mus musculus with 15 samples.

Results

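Newborn liver was compared between knockout mice, whose maternally inherited chromosome lacks the microRNA genes from miR-379 to miR-410 (KO_P0, n = 5), and wild-type littermates (WT_P0, n = 4). All 9 animals were C57BL/6J mice taken on the day of birth, P0, after natural delivery. The labels give neither the hours since birth nor the sex. The 9 arrays are all the P0 liver samples among the 15 arrays of the series, and the other 6 are fetal livers at E19.5, counted in days of gestation, after caesarean section. Each array is a 1-colour Agilent expression array of 1 liver RNA sample. The labels do not say which samples share a litter, so p-values measure the spread between these samples. The deletion is on the maternal chromosome only, and where it starts and stops is not stated in the labels.

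Levels are log2 signal minus the 75th percentile of that array, so 0 is the 75th percentile and each unit is a doubling. Differences are KO minus WT on that scale, from limma over 22502 genes and named transcripts. "Called", "rose" and "fell" mean that the p-value, adjusted by Benjamini-Hochberg across all of these, was under 0.05. Between 57.7% and 65.6% of probes were well above background on a P0 array, and 0 spots were saturated. The hepatocyte markers matched the labelled tissue: all 18 list members on the array, albumin and transferrin among them, were above background on all 9 arrays, and their median level ran from 8.64 to 8.86. WT_P0 replicates 1 and 2 shared slide 2 with KO_P0 replicates 1 and 2, and the remaining P0 arrays lay on slide 3. WT_P0 replicates 3 and 4 stood apart by transcripts of pancreas, described below, so results are given with and without them.

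The deleted cluster lies in the imprinted Dlk1-Dio3 domain on distal mouse chromosome 12. There the chromosome from the mother expresses noncoding RNAs (Meg3, Rian, Mirg) and the microRNAs within them, while the chromosome from the father expresses the protein genes Dlk1, Rtl1 and Dio3. A microRNA recognises its target transcripts mainly through its seed, bases 2 to 8, and lowers their stability or translation. The newborn liver has to replace the placental supply of glucose with gluconeogenesis and the oxidation of milk fat, while blood formation leaves the organ and bile and drug metabolism mature.

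RefSeq (GRCm38.p6) lists 69 mature names from 37 hairpins between Mir379 and Mir410, at chr12:109709060-109743795 on the plus strand. They carry 63 different seeds, and 6 of these seeds are each shared by 2 names. The 12 sequences with a shared seed are shown because they show how related arms within the cluster could reach the same sites; capitals mark the seed.
miR-379-3p: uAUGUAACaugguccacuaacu
miR-411-3p: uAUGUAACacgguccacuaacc
miR-379-5p: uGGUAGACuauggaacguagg
miR-1193-5p: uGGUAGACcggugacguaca
miR-1197-5p: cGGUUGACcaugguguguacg
miR-758-5p: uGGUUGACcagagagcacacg
miR-453: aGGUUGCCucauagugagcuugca
miR-496a-5p: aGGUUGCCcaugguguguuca
miR-494-5p: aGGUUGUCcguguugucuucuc
miR-410-5p: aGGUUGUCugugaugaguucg
miR-376c-5p: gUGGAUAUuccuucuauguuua
miR-376b-5p: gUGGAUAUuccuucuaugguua
The arrays do not measure these mature RNAs, so the genotype was checked on the host transcript Mirg.

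Mirg, the noncoding RNA that holds many of these microRNAs, was lower on every KO array. Its probe lies at chr12:110987569-110987628 (mm9, plus strand) and is shown because the genotype check rests on it.
Mirg probe: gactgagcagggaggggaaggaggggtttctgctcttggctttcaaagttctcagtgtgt
The Mirg level was 1.64, 1.79, 1.15 and 1.20 on WT_P0 replicates 1 to 4. It was -1.57, -1.34, -1.52, -1.41 and -0.41 on KO_P0 replicates 1 to 5. The groups did not overlap, and KO replicate 5 lay above the other KO arrays. The difference for Mirg was -2.70 (SE 0.25, limma adjusted p = 0.0061), a 6.49-fold fall that left a signal above background on all 5 KO arrays. With the replicate block, which pairs arrays of the same number and drops KO_P0 replicate 5, the difference was -2.91 (adjusted p = 0.033). Without WT_P0 replicates 3 and 4 it was -2.97 with adjusted p = 0.068. Another noncoding transcript, named after its values were seen, has an interval that spans the Mirg probe on the plus strand. Its own probe, at -4.1 kb from that of Mirg, differed by -0.33 (SE 0.10, limma adjusted p = 0.13) and was not called.

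Of the 14 measured members of a list of the domain and its neighbours, 2 were called, Mirg and Begain, both lower, against 1.06% of all tested genes called lower. Meg3, the noncoding RNA at the start of the maternal transcripts, stood at 5.39 ± 0.14 (SD, n = 4) in WT and 5.31 ± 0.34 (SD, n = 5) in KO and was not called (adjusted p = 0.84). Its difference of -0.08 changed sign in some settings. Dlk1, a paternally expressed membrane protein, differed by 0.30 (SE 0.14, adjusted p = 0.28). Dio3, the enzyme that inactivates thyroid hormone, differed by 0.72 (SE 0.25, adjusted p = 0.17) at a low level, and its KO arrays ran from -4.17 to -2.88. The other 9 members of the list were not called, with differences from -0.88 (6430411K18Rik) to 0.32 (Wars).

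Within 1.5 Mb of the Mirg probe, 74 genes or named transcripts were tested. Of these, 4 were called, all lower, against 1.06% of all tested genes. Besides Mirg these were a long noncoding transcript at -1.1 kb (-1.46, SE 0.22, adjusted p = 0.022), Begain at -717.2 kb (-0.63, SE 0.11, adjusted p = 0.037) and Slc25a47 at -892.9 kb (-1.08, SE 0.15, adjusted p = 0.019). The noncoding transcript and Slc25a47 were named after their values were seen. The interval of that noncoding transcript contains the Mirg probe on the same strand, so whether it reads Mirg itself cannot be told. Begain encodes a protein of synapses, and Slc25a47 is a mitochondrial carrier made mainly in liver. Slc25a47 levels ran from 6.61 to 7.27 in WT and from 5.82 to 6.18 in KO. With the replicate block the adjusted p of the 4 ran from 0.033 to 0.15, and without WT_P0 replicates 3 and 4 from 0.068 to 0.25.

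**Figure D1:**
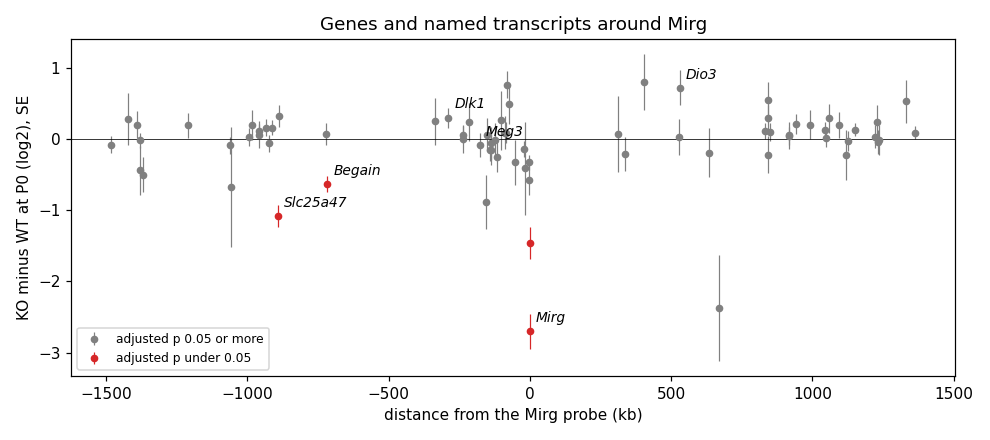
KO minus WT difference at P0 (log2, with limma SE) of the 74 tested genes and named transcripts within 1.5 Mb of the Mirg probe, against distance from that probe in kb. The 4 red points are called, with Mirg at -2.70 and a transcript interval that overlaps its probe at -1.46, while Meg3, Dlk1 and Dio3 are grey.

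Across the 22502 genes, 289 were called, 1.28% of those tested: 50 were higher in KO (0.222%) and 239 lower (1.06%). Of the 289, 159 differed at least 2-fold (0.707% of those tested). The 2 groups did not overlap for any of the 289, against 9.14% of all tested genes without overlap. An unadjusted p under 0.05 was reached by 4283 genes.

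How many genes were called depended on the arrays and terms in the fit. Without WT_P0 replicates 3 and 4, 4 genes were called: Cyp2e1 and Acnat2, which were lower and among the 289, and Hoxa6 and a noncoding transcript on chromosome 8, which were not. With the replicate block 3 were called, namely Mirg, Cyp2e1 and Ces3b. With the brightness of each array as a covariate Cyp2e1 alone was called. Brightness moved with genotype: the log2 signal at the 75th percentile had a mean of 9.44 ± 0.18 (SD, n = 4) over WT and 9.16 ± 0.10 (SD, n = 5) over KO arrays, and its part in the results was not tested further than by this covariate. The 4-group fit over all 15 arrays called 1595 genes, 283 of the 289 among them. Within slide 2 alone (2 against 2 arrays) limma called 0 genes, with 1877 at an unadjusted p under 0.05, and within slide 3 alone it called 907.

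Because the groups did not overlap for the 289, leaving out arrays, splitting by slide or pairing cannot turn their direction, so the sizes are compared here. The size of the 289 differences without the 2 arrays was 0.88 of the size with them at the median, and 0.81 within slide 2 and 1.16 within slide 3. With the replicate block it was 0.96, and with the brightness covariate 0.89. Residual degrees of freedom were 7 in the main fit and 5 without the 2 arrays. They were 3 with the block, 6 with the covariate and 2 within slide 2, so the counts called are not compared at equal power.

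**Figure D2:**
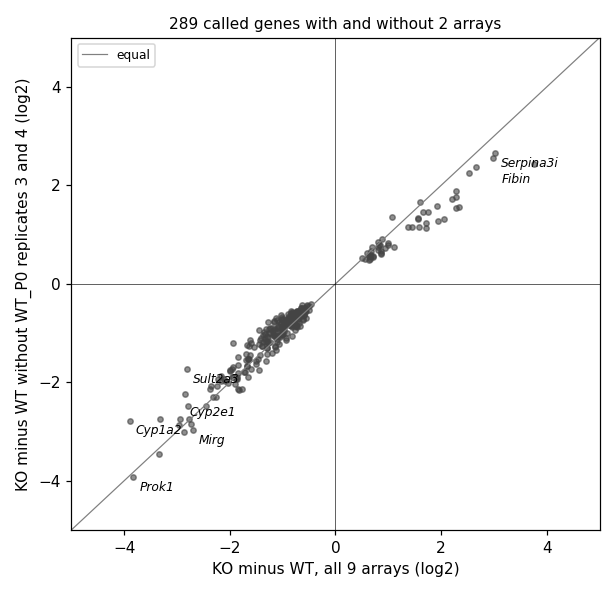
KO minus WT difference (log2) of the 289 called genes with all 9 P0 arrays (horizontal axis) and without WT_P0 replicates 3 and 4 (vertical axis); the line marks equal values. At the median the size without the 2 arrays is 0.88 of that with them, and Cyp1a2 moves from -3.90 to -2.78 and Prok1 from -3.83 to -3.93.

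Several of the largest falls were enzymes that modify drugs, hormones and other small molecules. Cyp2e1, the cytochrome P450 that oxidises ethanol, acetone and paracetamol, stood at 7.06, 7.26, 7.42 and 7.67 on the WT arrays. On the KO arrays it stood at 4.62, 4.11, 4.24, 4.88 and 4.21. Every KO array lay far below every WT array, and Cyp2e1 fell by 2.94 (SE 0.19, adjusted p = 0.00078), 7.68-fold. It was also called, as the 1 gene common to all 3, in the settings with the fewest calls over both slides, at -2.75 without WT_P0 replicates 3 and 4 (adjusted p = 0.019), -2.89 with the replicate block (adjusted p = 0.033) and -2.47 with the brightness covariate (adjusted p = 0.02).

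Cyp1a2, which metabolises caffeine and aromatic amines, stood at -3.31, -3.06, -0.47 and -1.42 on the WT arrays and at -4.84, -6.41, -5.80, -5.50 and -7.27 on the KO arrays. The groups did not overlap, but WT replicates 3 and 4 were the highest, and only 1 of 5 KO arrays was well above background. Cyp1a2 fell by 3.90 (SE 0.65, adjusted p = 0.03), a size that rests on KO signals mostly not well above background. The difference was -2.78 without WT_P0 replicates 3 and 4, -2.44 within slide 2 and -5.25 within slide 3. Cyp2d22, another drug-metabolising P450, fell by 0.60 (SE 0.11, adjusted p = 0.038), and its groups were tight at 3.66 ± 0.15 (SD, n = 4) and 3.06 ± 0.10 (SD, n = 5).

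The P450 drug metabolism list had 26 measured members. Of these 3 were called, all lower, where 1.06% of all tested genes were called lower. In the list 22 had a difference below 0, and the median was -0.54 (-0.34 without WT_P0 replicates 3 and 4), beside 0.02 over all tested genes. Counted by name, 82 Cyp genes were tested with 8 lower and 0 higher, and 24 of them did not overlap between groups, all lower, where 5.43% of all tested genes did so.

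Some conjugating and hydrolysing enzymes also fell. Sult1c2, a sulfotransferase, stood between -2.97 and -0.60 in WT and between -5.66 and -4.38 in KO and fell by 3.32 (SE 0.43, adjusted p = 0.017). It was well above background on 1 of 5 KO arrays, so the size of this fall is as uncertain as that of Cyp1a2. Sult2a3, which sulfates steroids and bile acids, was kept for testing by its WT signal alone. It was not well above background on the 5 KO arrays and was at least 1.70-fold lower there. Its limma adjusted p of 0.042 is of the unbounded difference and does not test this bound. The WT levels of Sult2a3, at -6.28, -4.81, -3.42 and -3.33, spread widely, with replicates 3 and 4 the highest. Acnat2, which joins fatty acids to amino acids, stood at 0.57 ± 0.44 (SD, n = 4) in WT and -1.74 ± 0.22 (SD, n = 5) in KO and fell by 2.32 (SE 0.21, adjusted p = 0.0061). It was called without WT_P0 replicates 3 and 4 (-2.30, adjusted p = 0.018) but had adjusted p = 0.086 with the replicate block. Ces3b, a carboxylesterase that cleaves esters and amides, fell by 1.87 (SE 0.26, adjusted p = 0.019), and by 1.90 with the block (adjusted p = 0.048). Acnat2 and Ces3b were chosen after their values were seen.

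The enzyme families listed next, taken by gene name after the values were seen, had from 1 to 3 members called. The 15 Ugt genes had 2 called, the 14 Sult genes 2, the 13 Ces genes 3, the 14 Akr1 genes 3, the 20 Gst genes 1 and the 20 Hsd genes 2, all lower, where 1.06% of all tested genes were called lower. The medians were -0.50, -0.24, -0.40, -0.77, -0.41 and -0.47 in that order, and 0 members were called higher. Among other families taken by name, the 15 Slc22 genes had 3 called and the 19 Aldh genes 1, all lower. The 2 called Sult genes, Sult1c2 and Sult2a3, were well above background on 1 and 0 of 5 KO arrays. Slc22a27 and Slc22a7, among the called Slc22 genes, were so on 0. These 4 genes were kept for testing by their WT signal alone, so their calls rest on KO signals mostly not well above background. The 33 collagen genes (Col) and the 54 genes of large ribosomal subunit proteins (Rpl) had 0 called by limma (10 and 8 at an unadjusted p under 0.05). Their medians were -0.29 and 0.18. Of the 7 enzymes named in these paragraphs, 2 stayed called with the replicate block (adjusted p from 0.033 to 0.15) and 2 without WT_P0 replicates 3 and 4 (0.018 to 0.22).

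Several transporters that bring bile acids and organic anions into the hepatocyte or pump them into bile fell. Slc22a27 and Slc22a7, uptake carriers of organic anions, were not well above background on the 5 KO arrays. They were at least 1.46-fold and 1.28-fold lower there. Their limma adjusted p of 0.0083 and 0.022 are of the unbounded differences and do not test these bounds. Both were kept for testing by their WT signal alone. Slc22a7 was named after its values were seen.

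Slco1b2, the basolateral uptake carrier for bilirubin and bile acids, stood at 5.45, 5.63, 6.12 and 6.47 in WT and at 4.72, 4.39, 4.25, 4.33 and 3.66 in KO. It fell by 1.64 (SE 0.25, adjusted p = 0.024), with -0.98 within slide 2 and -2.21 within slide 3. Abcb11, the bile salt export pump, stood between 4.37 and 5.44 in WT and between 3.44 and 3.90 in KO and fell by 1.25 (SE 0.21, adjusted p = 0.03). Abcc2, which exports conjugated bilirubin, fell by 0.53 (SE 0.11, adjusted p = 0.048).

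Nr0b2 encodes SHP, the nuclear receptor without a DNA-binding domain that is induced by bile acids and represses their synthesis. It stood at -0.52, 0.49, -0.25 and -0.20 in WT and at -1.95, -2.69, -2.30, -3.54 and -3.80 in KO. The KO arrays spread widely, yet all lay below the WT arrays, and Nr0b2 fell by 2.74 (SE 0.39, adjusted p = 0.019). The bile acid list had 20 measured members with 4 lower and 0 higher, 10 lower and 1 higher without overlap, and a median of -0.63, while 6 members had a difference above 0. Over all tested genes 1.06% were called lower, and 5.43% were lower and 3.71% higher without overlap. That median was -0.58 without WT_P0 replicates 3 and 4, -0.51 within slide 2 and -0.64 within slide 3. None of the 6 called genes named among the transporters and Nr0b2 passed with the replicate block (adjusted p from 0.086 to 0.18) or without WT_P0 replicates 3 and 4 (0.13 to 0.27); all 6 had an unadjusted p under 0.05 in both.

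Some genes of fatty acid oxidation, ketone body synthesis and lipid synthesis fell. Hadh, which catalyses the third step of mitochondrial fatty acid oxidation, stood at 4.69, 4.56, 5.29 and 5.12 in WT and at 4.32, 3.81, 4.04, 3.95 and 3.94 in KO. Its WT arrays on slide 3 were the highest, the groups did not overlap, and Hadh fell by 0.90 (SE 0.17, adjusted p = 0.043). Acads, the short-chain acyl-CoA dehydrogenase, fell by 0.84 (SE 0.16, adjusted p = 0.047), and Decr1, needed for unsaturated fatty acids, by 0.61 (SE 0.12, adjusted p = 0.048). These were the 3 of 19 measured fatty acid oxidation genes that were called, where 1.06% of all tested genes were called lower. In this list 18 of 19 differences were below 0, 10 members were lower without overlap against 5.43% of all tested genes, and the median was -0.46, with -0.20 within slide 2 and -0.79 within slide 3.

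Bdh1, the mitochondrial enzyme that makes 3-hydroxybutyrate, the main ketone body, stood at 5.01, 5.49, 5.48 and 5.77 in WT and at 4.25, 3.88, 4.18, 4.02 and 4.52 in KO. It fell by 1.27 (SE 0.18, adjusted p = 0.019), 2.41-fold, and by a like amount within slide 2 (-1.19) and slide 3 (-1.39). It was the 1 called gene of 8 in the ketone body list, whose median was -0.35. Over all tested genes 1.06% were called lower. Vnn1, a pantetheinase and PPARA target, fell by 0.76 (SE 0.14, adjusted p = 0.038) and was the 1 called gene of 25 in the list of PPARA targets and peroxisomal oxidation. That list had a median of -0.76, but without WT_P0 replicates 3 and 4 it was -0.35, and on slides 2 and 3 alone -0.24 and -1.34.

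Among genes that make lipid, Mlxipl, which encodes the glucose-responsive factor ChREBP, stood between 3.19 and 3.96 in WT and between 2.16 and 2.86 in KO and fell by 1.18 (SE 0.19, adjusted p = 0.027). Fads2, the delta-6 desaturase, fell by 0.86 (SE 0.17, adjusted p = 0.047). Both belong to a fatty acid and triglyceride synthesis list in which 2 of 21 members were called and the median was -0.07. Hmgcs1, which supplies the cytosolic precursor of cholesterol, fell by 1.18 (SE 0.21, adjusted p = 0.036) and was the 1 called gene of 23 in cholesterol synthesis (median -0.30). The calls in both lists were lower, where 1.06% of all tested genes were called lower. The TCA cycle list had 0 of 18 members called by limma (6 at an unadjusted p under 0.05) and a median of -0.23. In it 5 members were lower without overlap, against 5.43% of all tested genes. None of the 8 called genes of fuel metabolism named here passed with the replicate block (adjusted p from 0.10 to 0.19) or without WT_P0 replicates 3 and 4 (0.20 to 0.27).

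Nr0b2 and Mlxipl, both lower in KO, each have the E box CACGTG in a RefSeq promoter window (250 bases before to 50 after the start site, GRCm38.p6). For Mlxipl this holds at 1 of its start sites, and the other listed window has no E box. Promoters were also searched for other binding motifs (ERR, HNF1, C/EBP, HNF4, CRE and TCF), which are not described here. The bases before the start site are shown with the E box in capitals, 5′ to 3′, for Nr0b2 at chr4:133553126-133553375 (plus strand) and for 1 of the start sites of Mlxipl at chr5:135089640-135089889 (plus strand).
Nr0b2: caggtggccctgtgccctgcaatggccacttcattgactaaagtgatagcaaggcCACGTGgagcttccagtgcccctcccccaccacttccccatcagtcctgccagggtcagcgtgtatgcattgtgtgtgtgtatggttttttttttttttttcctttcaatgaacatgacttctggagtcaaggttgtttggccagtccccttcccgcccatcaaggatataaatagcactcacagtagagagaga
Mlxipl: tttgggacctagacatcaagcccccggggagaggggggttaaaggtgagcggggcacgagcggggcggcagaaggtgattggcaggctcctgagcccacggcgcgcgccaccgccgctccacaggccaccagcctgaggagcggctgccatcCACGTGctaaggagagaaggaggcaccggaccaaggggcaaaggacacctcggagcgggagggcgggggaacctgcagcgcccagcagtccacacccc
CACGTG reads the same on both strands and is bound by several basic helix-loop-helix factors. It was present in 10.6% of the 12814 tested genes with a promoter in the table, in 6.1% of the 164 called lower and in 10.3% of the 29 called higher.

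Genes of nitrogen and glucose handling went both ways. Otc, the urea cycle enzyme that makes citrulline, stood at 2.25, 1.89, 2.37 and 2.61 in WT and at 1.47, 0.73, 1.24, 0.91 and 0.62 in KO and fell by 1.29 (SE 0.21, adjusted p = 0.028). It was the 1 called gene of 12 in the urea cycle list, whose median was -0.02, where 1.06% of all tested genes were called lower. Aqp9, the channel through which glycerol enters the hepatocyte, fell by 1.05 (SE 0.18, adjusted p = 0.036).

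Got1, the cytosolic aspartate aminotransferase, rose. Its levels were 6.33, 6.03, 5.39 and 6.02 in WT and 6.92, 7.89, 7.37, 7.60 and 7.78 in KO, a difference of 1.57 (SE 0.24, adjusted p = 0.022). Sds, serine dehydratase, which turns serine into pyruvate, stood at 3.00, 1.95, 1.86 and 1.65 in WT and at 3.08, 4.60, 4.06, 4.03 and 4.46 in KO. KO replicate 1 lay only just above WT replicate 1, and Sds rose by 1.93 (SE 0.35, adjusted p = 0.038). Slc2a1, the GLUT1 glucose transporter, rose by 0.87 (SE 0.17, adjusted p = 0.044).

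In the list of gluconeogenesis and its amino acid entry, Got1 and Sds were higher and Aqp9 lower among 18 members, and the median was 0.16. Over all tested genes 0.222% were called higher and 1.06% lower. The 29 measured genes of amino acid catabolism had 0 called by limma (16 at an unadjusted p under 0.05), 8 lower and 1 higher without overlap (5.43% and 3.71% of all tested genes), and a median of -0.47, which was 0.03 within slide 2 and -0.81 within slide 3. Bhmt, the brightest of them, differed by -0.61 (SE 0.30, adjusted p = 0.31), and of its KO levels (8.72, 8.46, 8.34, 7.77 and 7.05) the first lay inside the WT range of 8.58 to 8.79. Mat1a, the next brightest, differed by 0.18 (adjusted p = 0.59). None of the 5 called genes of nitrogen and glucose handling passed with the replicate block (adjusted p from 0.10 to 0.18) or without WT_P0 replicates 3 and 4 (0.20 to 0.27).

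Some secreted proteins were lower. Klkb1, plasma prekallikrein of the contact pathway, stood at 4.95 ± 0.16 (SD, n = 4) in WT and 3.98 ± 0.24 (SD, n = 5) in KO and fell by 0.97 (SE 0.14, adjusted p = 0.022). F7, coagulation factor VII, fell by 0.73 (SE 0.14, adjusted p = 0.042). C8a, a chain of the membrane attack complex, fell by 0.87 (SE 0.14, adjusted p = 0.03), and C1ra, a protease of the first complement component, by 0.69 (SE 0.12, adjusted p = 0.037). Igfals, the acid-labile subunit that holds IGF1 in the circulation, fell by 1.10 (SE 0.22, adjusted p = 0.048).

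Coagulation genes had 2 of 22 called with a median of -0.14, complement genes 2 of 19 with a median of -0.22, and the IGF and growth hormone list 1 of 22 with a median of -0.38. All 5 were lower, where 1.06% of all tested genes were called lower. The 21 measured acute phase genes had 0 called by limma (10 at an unadjusted p under 0.05), 3 higher without overlap (3.71% of all tested genes), and a median of 0.05. None of the 5 called secreted proteins passed with the replicate block (adjusted p from 0.11 to 0.13) or without WT_P0 replicates 3 and 4 (0.18 to 0.25).

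Of 24 measured liver transcription factors and nuclear receptors, 3 were called, all lower, Nr0b2 and Cebpa among them. Over all tested genes 1.06% were called lower. In the list 16 differences were below 0 and 8 above. Without overlap 4 members were lower and 2 higher, beside 5.43% and 3.71% of all tested genes. Cebpa, a factor that sustains hepatocyte metabolism, stood at 3.17, 2.89, 3.35 and 2.92 in WT and at 2.57, 2.03, 2.42, 2.30 and 1.95 in KO and fell by 0.83 (SE 0.16, adjusted p = 0.043). The median of the list was -0.26. With the replicate block the adjusted p of Cebpa was 0.11, and without WT_P0 replicates 3 and 4 its difference was -0.78 (adjusted p = 0.26).

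The other large falls came from outside these lists. Prok1, a secreted prokineticin, stood at 1.37, 0.56, 1.33 and 0.22 in WT and at -1.30, -3.96, -1.48, -3.99 and -4.08 in KO. KO replicates 1 and 3 lay well above the other 3 KO arrays, and Prok1 fell by 3.83 (SE 0.66, adjusted p = 0.035). Ckmt2, a mitochondrial creatine kinase of muscle, and Osr1, a transcription factor of embryonic mesoderm, were not well above background on the 5 KO arrays. They were at least 2.69-fold and 3.41-fold lower there. Their limma adjusted p of 0.022 and 0.03 are of the unbounded differences and do not test these bounds. Both were kept for testing by their WT signal alone. Dpt, dermatopontin of the extracellular matrix, fell by 2.85 (SE 0.45, adjusted p = 0.026) and was well above background on 3 of 5 KO arrays.

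Skeletal muscle markers were also lower at the median. Of 22 markers on the array, 21, 21, 17 and 22 were above background on the WT arrays and between 15 and 19 on the KO arrays. Their median level was -2.16, -2.15, -3.25 and -1.78 in WT and -3.57, -3.29, -2.85, -3.07 and -1.84 in KO, so the groups overlapped. Of the 20 measured members 18 had a difference below 0 and 0 were called by limma (1 at an unadjusted p under 0.05). The median difference was -0.92, with -1.21 without WT_P0 replicates 3 and 4, -1.45 within slide 2 and -0.10 within slide 3. Their part in the fall of Ckmt2 was not tested.

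Dio1, the deiodinase that activates thyroid hormone, stood between -1.93 and -0.52 in WT and between -4.29 and -3.19 in KO and fell by 2.37 (SE 0.31, adjusted p = 0.017). Wnt9b, a Wnt ligand made by endothelium around the central vein, was tightly grouped at -2.71 ± 0.18 (SD, n = 4) in WT and -4.03 ± 0.18 (SD, n = 5) in KO. It fell by 1.32 (SE 0.13, adjusted p = 0.0079). Dio1 and Wnt9b were named after their values were seen. None of Prok1, Ckmt2, Osr1, Dpt, Dio1 and Wnt9b passed with the replicate block (adjusted p from 0.086 to 0.098) or without WT_P0 replicates 3 and 4 (0.13 to 0.26).

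**Figure D3:**
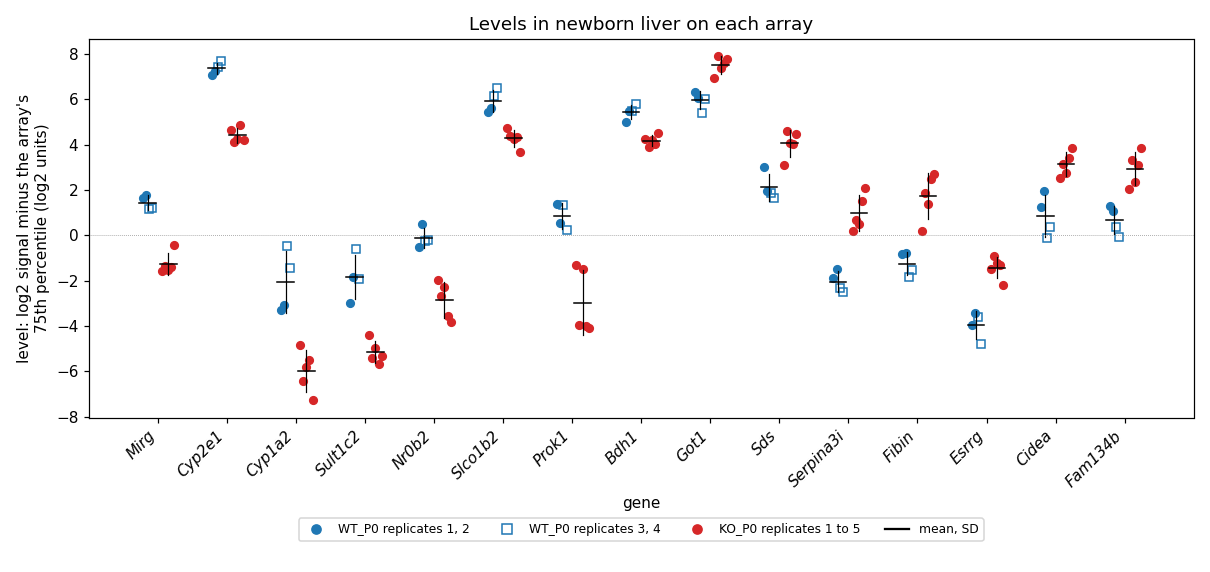
Level of 15 called genes on each P0 array (log2 signal relative to the 75th percentile of the array); blue points are WT_P0, with open squares for replicates 3 and 4, red points are KO_P0, and black lines give the mean and SD. No gene overlaps between the groups, and the open squares of Cyp1a2 are the highest of the WT points while those of Cidea and Fam134b are the lowest.

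The largest rise among named genes was Serpina3i, a serine protease inhibitor of a large mouse cluster whose members are close in sequence, so its probe may read related transcripts. It stood at -1.87, -1.48, -2.31 and -2.49 in WT and at 0.17, 0.66, 0.50, 1.51 and 2.08 in KO and rose by 3.02 (SE 0.39, adjusted p = 0.017). Fibin, a secreted protein first described in fin bud development, stood at -0.84, -0.80, -1.83 and -1.53 in WT and at 0.21, 1.87, 1.38, 2.47 and 2.72 in KO and rose by 2.98 (SE 0.48, adjusted p = 0.027). For both genes the smallest KO value was that of replicate 1, which still lay above all WT arrays.

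Esrrg, the estrogen-related receptor gamma, a nuclear receptor that drives oxidative and fasting genes, stood at -3.94, -3.42, -3.60 and -4.81 in WT and at -1.50, -0.92, -1.21, -1.30 and -2.18 in KO. It rose by 2.52 (SE 0.32, adjusted p = 0.017) and by near amounts on both slides (2.47 and 2.64). Cidea, a lipid droplet protein best known from brown fat, rose by 2.28 (SE 0.42, adjusted p = 0.039). Its WT levels of 1.24 and 1.93 in replicates 1 and 2 and of -0.13 and 0.35 in replicates 3 and 4 gave a difference of 1.23 within slide 2 and 3.22 within slide 3.

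Fam134b (now Retreg1), a receptor for the autophagy of endoplasmic reticulum, rose by 2.28 (SE 0.40, adjusted p = 0.036). Fam132b (now Erfe) encodes erythroferrone, the erythroblast hormone that lowers hepcidin, and rose by 2.05 (SE 0.36, adjusted p = 0.037), by 1.10 within slide 2 and 2.92 within slide 3. O3far1 (now Ffar4), a receptor for long-chain fatty acids, rose by 1.75 (SE 0.24, adjusted p = 0.019). Slco4c1, an organic anion carrier, rose by 2.29 and Itgae, an integrin chain of lymphocytes in epithelia, by 1.95, with adjusted p of 0.036 and 0.032. Tmem212, a membrane protein, was above background on 1 of 4 WT arrays and all 5 KO arrays and rose by 2.33 (adjusted p = 0.037), a size that rests on WT signals mostly not well above background.

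These 10 genes and Sds are among the 12 largest rises. None of the 10 passed with the replicate block (adjusted p from 0.086 to 0.18) or without WT_P0 replicates 3 and 4 (0.13 to 0.27), where their differences ran from 1.27 to 2.66.

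The glucocorticoid and cAMP response list, genes induced by fasting and stress hormones, had 0 of 19 members called by limma, and 11 had an unadjusted p under 0.05. Of these 19, 8 members were higher without overlap and 0 lower, where 3.71% of all tested genes were higher without overlap. The list median was 0.49, and it was 0.50 without WT_P0 replicates 3 and 4, 0.37 within slide 2 and 0.50 within slide 3. On the arrays its median level was 2.26, 2.31, 2.31 and 1.78 in WT and 2.70, 3.43, 2.75, 3.06 and 3.59 in KO. Mt1, metallothionein, stood at 8.19, 7.14, 8.16 and 8.30 in WT and between 8.79 and 9.13 in KO, a difference of 1.00 (SE 0.23) that did not pass (adjusted p = 0.064). Igfbp1, which binds IGFs and is induced in fasting, differed by 0.36 (SE 0.11, adjusted p = 0.12), also without overlap. Atf4, the central factor of the integrated stress response, differed by 0.54 (SE 0.12, adjusted p = 0.065), whereas Atf5, the brightest gene of the list, differed by -0.74 (adjusted p = 0.17). The 20 genes of that response had 0 called by limma (9 at an unadjusted p under 0.05) and a median of 0.38, which was 0.06 without WT_P0 replicates 3 and 4.

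**Figure D4:**
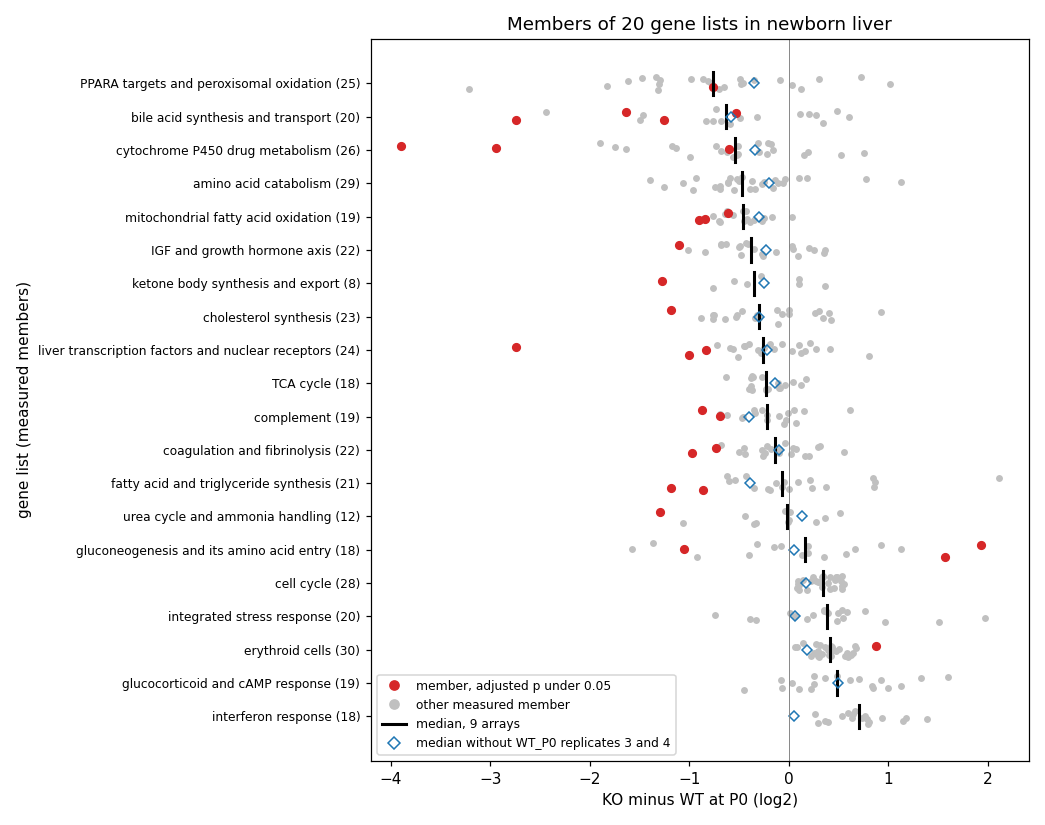
KO minus WT difference at P0 (log2) of each measured member of 20 gene lists; red points are called, grey points are not, black bars are list medians with all 9 arrays and blue diamonds medians without WT_P0 replicates 3 and 4. The PPARA median moves from -0.76 to -0.35 and the interferon median from 0.71 to 0.05, while the glucocorticoid and cAMP median stays at 0.49 and 0.50.

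Markers of blood and stromal cells were read as levels in bulk RNA, in which fewer cells of a type and less RNA per cell cannot be told apart. All 30 erythroid markers had a difference above 0, with a median of 0.41, but 1 was called, where 0.222% of all tested genes were called higher. Hbb-y, the embryonic beta-like globin, stood at 0.28, -0.04, 0.01 and 0.42 in WT and at 1.37, 0.66, 0.89, 1.21 and 1.10 in KO and rose by 0.88 (SE 0.17, adjusted p = 0.041). It was as high without WT_P0 replicates 3 and 4 (0.92), whereas the erythroid median was then 0.18. Probes of globins may read more than 1 globin transcript. The 28 measured cell cycle genes were likewise all above 0 (median 0.34, and 0.17 without the 2 arrays), with 0 called by limma and 15 at an unadjusted p under 0.05. Mki67, the proliferation marker, differed by 0.54 (SE 0.18, adjusted p = 0.16), and Mcm6, of the replicative helicase, by 0.24 (adjusted p = 0.42).

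Some transcripts of T cells and killer cells fell. Cd3g, a chain of the T cell receptor complex, stood at -2.66, -2.49, -2.89 and -2.78 in WT and at -3.75, -3.94, -4.24, -3.64 and -3.71 in KO and fell by 1.15 (SE 0.15, adjusted p = 0.017). Gzma and Gzmb, granzymes of killer cells, fell by 0.77 (SE 0.14, adjusted p = 0.038) and 1.30 (SE 0.17, adjusted p = 0.018). These differences were as large without WT_P0 replicates 3 and 4, at -1.28, -0.93 and -1.30. The T and NK cell list had 2 of 8 members called, both lower (1.06% of all tested genes), and a median of -0.35. In it 6 differences were below 0 and 2 above. Its median level was 1.03, 0.83, 0.85 and 0.82 in WT and 1.03, 0.99, 1.17, 0.89 and 0.96 in KO, so it was not lower in KO. Of the 15 tested Klr genes, receptors of killer cells, 2 were called lower and 0 higher. Their differences were below 0 for 9 and above 0 for 6. Gzmb and the Klr family were chosen after their values were seen.

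Tek, the TIE2 receptor of endothelium, fell by 0.57 (SE 0.11, adjusted p = 0.041) and was the 1 called gene of 14 endothelial markers, whose median was 0.08. Over all tested genes 1.06% were called lower. Fabp2, the intestinal fatty acid binding protein, which hepatocytes also make, fell by 1.54 (SE 0.18, adjusted p = 0.013). Of the other 6 measured genes of stomach and intestine, 0 were called. The 12 markers of stellate cells and fibroblasts had 0 called by limma (4 at an unadjusted p under 0.05) and a median of -0.36. Col1a2 differed by -0.50 (SE 0.14, adjusted p = 0.11) and Dcn, the brightest of them, by 0.05 (adjusted p = 0.83). Macrophage, neutrophil, B cell, platelet and cholangiocyte lists had 0 called by limma (1, 1, 0, 4 and 1 at an unadjusted p under 0.05) and medians of 0.03, 0.18, 0.06, -0.12 and -0.13. None of the 6 called cell markers passed with the replicate block (adjusted p from 0.086 to 0.18) or without WT_P0 replicates 3 and 4 (0.13 to 0.26).

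WT_P0 replicates 3 and 4 carried transcripts of pancreas. Ctrb1, chymotrypsinogen, stood at -1.49 and -0.91 on WT replicates 1 and 2 and at 4.06 and 5.22 on replicates 3 and 4. On the KO arrays it stood at -1.33, -2.06, 0.63, -1.33 and -0.93. Try5, a trypsinogen, stood at -2.34, -0.92, 2.92 and 4.70 in WT and between -3.02 and -0.08 in KO. Ins2, insulin of the islets, stood at -2.59, -2.49, -0.32 and 0.74 in WT and between -2.77 and -1.75 in KO. The 25 measured exocrine markers had a median level of -2.34, -2.09, 0.82 and 2.34 on the WT arrays and from -2.55 to -1.46 on the KO arrays, with KO replicate 3 the highest. Of 31 exocrine markers on the array, 28 and 29 were above background on WT replicates 3 and 4, and between 21 and 25 on the other 7 arrays.

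Of the 25 exocrine genes, 0 were called by limma (10 at an unadjusted p under 0.05). Ctrb1 differed by -2.72 (SE 1.35, adjusted p = 0.31) and Try5 by -2.91 (SE 1.33, adjusted p = 0.27). The exocrine median was -1.62, and -0.11 without the 2 arrays. Amy2a5, an amylase, stood at 3.53, 4.16, 4.96 and 6.30 in WT and between 2.76 and 4.50 in KO. Ctrb1, Try5, Amy2a5 and Spink3 were the 4 exocrine markers with the highest level on any P0 array. Spink3, a trypsin inhibitor, did not follow this pattern, at 4.69, 3.15, 2.93 and 3.58 in WT and between 3.57 and 4.84 in KO. Neither did Pdia2, a disulfide isomerase of pancreas that lay between 2.65 and 3.11 on all 9 arrays, nor Cela1, Ctrc and Pla2g1b, none of which was highest on WT replicates 3 or 4. These last 4 were named after their values were seen. Other arrays carried other tissues: all 13 adrenal cortex markers and all 8 kidney markers were above background on WT replicate 2, against 9 to 11 and 3 to 5 on the other 8 arrays. The smooth muscle median was 1.91 on KO replicate 2 and between -1.14 and 0.89 on the other arrays. The part of these tissues in the called differences was not tested beyond leaving arrays out.

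Interferon-stimulated genes were low on the same 2 WT arrays. Isg15, a ubiquitin-like protein, stood at 6.70, 5.84, 4.11 and 4.22 in WT and at 6.87, 6.85, 6.55, 6.31 and 6.49 in KO. WT replicate 1 lay inside the KO range, so the groups overlapped, and the difference of 1.39 (SE 0.49) did not pass (adjusted p = 0.17). Rsad2, viperin, differed by 1.18 (SE 0.38, adjusted p = 0.15) in the same pattern, with WT levels of 5.08, 4.28, 3.09 and 3.22. All 18 members of the list had a difference above 0 and 0 were called by limma (5 at an unadjusted p under 0.05), with a median of 0.71 that became 0.05 without the 2 arrays and was -0.09 within slide 2.

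**Figure D5:**
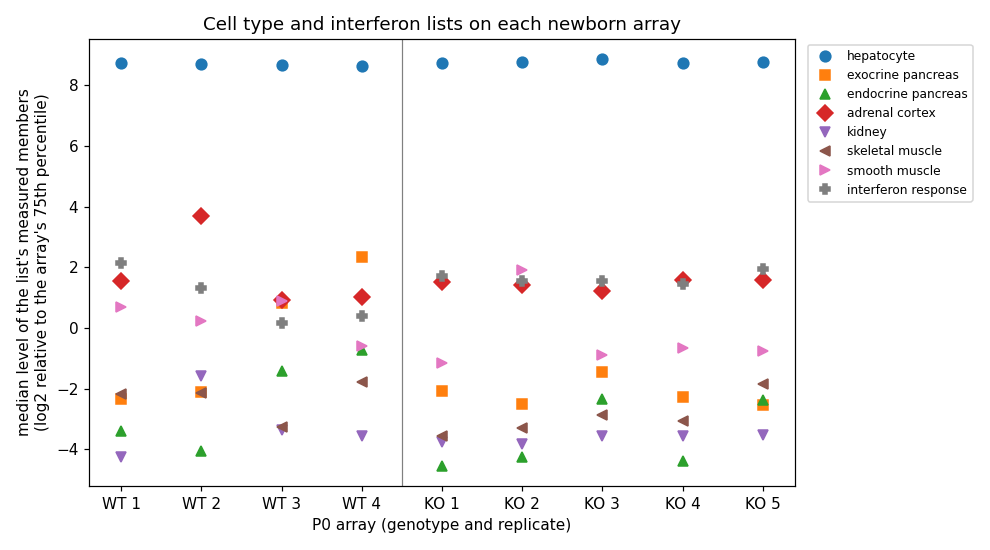
Median level of the measured members of 8 lists on each P0 array (log2 relative to the 75th percentile of the array), with WT_P0 replicates left of the line and KO_P0 replicates right of it. The hepatocyte median stays between 8.64 and 8.86, the exocrine pancreas median is 0.82 and 2.34 on WT replicates 3 and 4, and the adrenal median is 3.68 on WT replicate 2.

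The same contrast at E19.5 rests on 3 KO and 3 WT arrays that share no sample with P0. The E19.5 values are from the 4-group fit over 15 arrays. Of the 239 genes called lower at P0, 191 (79.9%) were also below 0 at E19.5, and of the 50 called higher 41 (82.0%) were above 0, beside 55.8% with the same direction over all tested genes. The sizes were small before birth, with medians of -0.19 and 0.18. Because these genes were selected by their P0 difference, their P0 sizes may be overstated, and the sizes at the 2 ages are not on equal terms. Some genes were well below 0 at both ages: Mirg differed by -3.48 at E19.5, Cyp2e1 by -1.75 and Dpt by -2.37. Others were near 0 at E19.5, among them Abcb11 (0.06), Bdh1 (-0.11) and Mlxipl (-0.04). Fibin (-0.18), Esrrg (-0.40) and Sds (-0.73, SE 0.39), which rose at P0, were below 0 at E19.5.

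A test of whether the KO minus WT difference changed between the ages found 0 of 22606 genes at an adjusted p under 0.05 (limma interaction). At an unadjusted p under 0.05 there were 2116. The smallest unadjusted p among the genes named here were those of Wnt9b (5.2e-05, interaction -1.52), Esrrg (8.7e-05, 2.92), Tmem212 (0.0001, 3.08), Sds (0.00012, 2.66) and Bdh1 (0.00025, -1.16), with adjusted p between 0.14 and 0.17. For Cyp2e1 the interaction was -1.19 (adjusted p = 0.22). No gene was therefore shown to have a KO minus WT difference that changed between P0 and E19.5 in this fit. Single alternative settings called between 0 and 18. Changes of gene level between the ages were not tested here.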

How the data were processed

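Per the file headers, the deposited files hold the fluorescence intensity of each spot from Agilent Feature Extraction 10.10, on Cy3-labelled cRNA from 200 ng of total RNA per the labels; other columns mark spots above background, and the authors' deposited series values are log2. For this report the processed intensity was put on a log2 scale minus the 75th percentile of the array (control spots excluded), and outlier spots were left out. Probes were kept if well above background on 3 or more arrays of WT_P0 or KO_P0, and a gene name was represented by its brightest probe (22502 names, of which 3280 are noncoding transcripts named by position). The 9 P0 arrays were fitted with limma 3.58.1 (lmFit, eBayes) in R 4.3.3, using Benjamini-Hochberg adjustment (residual degrees of freedom 7, prior 2.7); a fit over all 15 arrays was an alternative. The number of arrays limits the precision. Names are those of the array, with current symbols from RefSeq, and probe positions are on mm9 while RefSeq sequences are on GRCm38.p6. For a gene nowhere above background in KO, the fold is a bound against the dimmest detected signal of each KO array. Its adjusted p is of the unbounded difference and does not test the bound.

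The members and gene lists were chosen with earlier results of these data known. Named genes were the 12 largest rises and 12 largest falls among called genes without overlap, without names that are only IDs and without other-tissue markers; up to 4 called members per list, or else the 2 brightest; the domain list; and the 4 highest exocrine markers. Not every gene the rule allows is printed, and some results are not reported here. Genes outside this rule are marked as chosen after their values were seen. Of 47 lists, those not described had 0 to 1 member called.

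Replicate numbers were checked as pairs: deviations of same-numbered WT and KO arrays correlated at 0.14, 0.20, 0.13 and 0.27 across genes, all over 0.1, so the replicate block is given beside the results. Replicates 1 and 2 lie on slide 2 and the others on slide 3, and WT_P0 replicate 3 correlated best with KO_P0 replicate 4 (0.25). The block was fitted on 8 arrays, without KO_P0 replicate 5. Alternatives were the array sets, slide, block, brightness, array weights, normexp (offset 50), quantile, the deposited values, filters and probe rule; medians of lists under these were added after seeing the data. The fit was tested on simulated data.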

Additional observations from a re-analysis of the deposited data

Results flagged for a closer look

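In 15 of 240 checks, 1 array of a group lay far from the others of that group, where chance alone flags about 1 in 20. For single genes these were Mirg on KO_P0 replicate 5 (-0.41, the others from -1.57 to -1.34), Meg3 on WT_P0 replicate 4 (5.17, the others from 5.43 to 5.48), Hmgcs1 on WT_P0 replicate 1 (4.34), C1ra on WT_P0 replicate 1 (4.11), Itgae on KO_P0 replicate 2 (-0.45) and Mt1 on WT_P0 replicate 2 (7.14, the others from 8.16 to 8.30).

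For the median levels of lists, WT_P0 replicate 1 was high for coagulation (6.78) and for T and NK cells (1.03), WT_P0 replicate 2 was high for endothelium (2.40), WT_P0 replicate 3 was low for glycogen metabolism (2.83) and WT_P0 replicate 4 was low for the glucocorticoid and cAMP response (1.78). KO_P0 replicate 5 was low for bile acid synthesis and transport (1.79), KO_P0 replicate 4 for complement (4.05) and KO_P0 replicate 3 for macrophages (3.68). KO_P0 replicate 2 was high for smooth muscle (1.91, the others from -1.14 to -0.64).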

How the results depend on the processing

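The 289 called genes (159 at least 2-fold, 34 members of the lists) became 1595, 372 and 171 with all 15 arrays in 1 fit, 4, 4 and 1 without WT_P0 replicates 3 and 4, 0, 0 and 0 within slide 2, 907, 621 and 106 within slide 3, 3, 3 and 2 under the replicate block, 1, 1 and 1 when brightness was a covariate, 607, 275 and 70 with array weights, and 26, 23 and 4 without the filter on dim probes. Called genes and list members were 470 and 64 after normexp with percentile scaling, 549 and 63 after normexp with quantile scaling, and 553 and 65 on the authors' values, and 53 list members were called with the strict filter. With slide as a block 387 genes were called. Leaving out 1 array gave 13 to 438 called genes, 13 to 257 at least 2-fold and 3 to 53 list members; the lowest 2 counts, 13 and 24, were without WT_P0 replicate 4 and replicate 3, and without KO_P0 replicates 2, 3, 4 and 5 they were 45, 39, 51 and 74. The difference of Mirg ran from -2.91 to -2.58 with 1 array left out, and did not pass without WT_P0 replicates 3 and 4 (-2.97), within slide 2 (-3.17) or with the brightness covariate (-3.11). The test of a change in KO minus WT between ages called 2 genes without WT_P0 replicates 3 and 4. It called 5 after normexp with percentile scaling, 1 on the authors' values, and 0 to 18 with 1 array left out, the highest without KO_P0 replicate 1. Uncalled differences changed sign for Ctrb1 (0.20 without WT_P0 replicates 3 and 4, 0.48 with the brightness covariate), Ins2 (0.25 and 0.48 in the same settings), Amy2a5 (0.18 within slide 2) and Meg3 (0.02 within slide 3, 0.04 with the mean of probes, and from -0.18 to 0.04 with 1 array left out, the highest without KO_P0 replicate 2). The cause of these changes was not tested beyond the arrays and terms each setting removes or adds. Signals near background limit Sult2a3, Slc22a27, Slc22a7, Ckmt2 and Osr1 to bounds. They also leave the sizes of Cyp1a2 and Sult1c2 (1 of 5 KO arrays above background) and Tmem212 (1 of 4 WT arrays) uncertain.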
